A study of Arabidopsis thaliana with 12 samples.

Results

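The 44 core and linker histone genes of Arabidopsis thaliana are described here, chosen by family from the 33610 genes of the count table. No rule on their values was used, but earlier results of these data were known. They are 8 genes for H4, 5 for H3.1, 3 for H3.3, 1 for CENH3 (the centromeric H3, HTR12), 13 for the H2A family, 11 for H2B and 3 for H1. For the comparison of histone types, 23 genes were taken as replication type (all H4 and H3.1 genes, 4 canonical H2A genes and 6 H2B genes) and 6 as replacement type (the H3.3 and H2A.Z genes), and 15 belonged to neither. The tested plants were homozygous for trm5-1, a single T-DNA insertion allele (SALK_022617) of TRM5, the gene of a tRNA methyltransferase, and the controls were wild type Columbia (Col-0). RNA was sequenced in 3 libraries per genotype, numbered as replicates 2, 3 and 4 in both. By the labels and the methods the RNA came from leaves of 20-day-old plants, whereas a legend of the study's supplement gives younger seedlings, and nothing further was treated or deleted in either genotype.

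Histones package DNA into nucleosomes, each a core of H3, H4, H2A and H2B that is often joined by the linker histone H1. Genes for the replication type, such as H4 and H3.1, are transcribed mainly in S phase, when new DNA must be packaged. Their mRNA thus marks cells that copy their DNA. Replacement histones such as H3.3 and H2A.Z are made through the cell cycle and are exchanged into chromatin also in cells that no longer divide, as most cells of a grown leaf are.

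Histone genes of plants are known for short promoter elements, and the upstream DNA is shown first because some of these letters recur among the members. The 250 bases before each annotated gene start were read from the RefSeq genome TAIR10.1 and searched on both strands. The octamer CGCGGATC stood in 10 of the 44 upstream regions (22.7%), against 0.135% of the 27443 protein-coding genes, which include the histone genes. It was found in 3 of 5 H3.1 genes, 2 of 4 canonical H2A genes, 2 of 8 H4 genes and 1 gene each of H3.3, H2A.W and H1, and in 0 of 11 H2B genes. The hexamer ACGTCA, which neither contains nor is contained in the other words searched, stood in 11 regions (25%), against 7.69% of all genes. It was in 8 of 11 H2B genes, 2 H3.1 genes and 1 H3.3 gene. The core AACGG of the element known from genes of mitosis was in 14 of 23 replication-type regions (60.9%), 1 of 6 replacement-type regions (16.7%) and 8 of the 15 other regions (53.3%), against 20.6% of all genes. The E2F element, searched as TTTCCCGC or TTTGGCGC, was in 2 regions, those of the H4 genes AT3G45930 and AT3G46320, which are identical at 247 of 250 bases, and in 0.958% of all genes. CCGTCC was in 2 regions and in 2.18% of all genes.

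The 10 stretches of 60 bases below show the octamer in genes of different classes and different response, then the hexamer in H2B genes, each 5′ to 3′ toward its gene, with the element on either strand in capitals.
AT5G59690 (H4), chr5:24051377-24051436, plus strand: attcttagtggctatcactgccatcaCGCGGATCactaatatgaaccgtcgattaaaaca
AT1G07660 (H4), chr1:2368681-2368740, plus strand: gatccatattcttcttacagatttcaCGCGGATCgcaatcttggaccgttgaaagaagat
AT1G09200 (H3.1), chr1:2972335-2972394, minus strand: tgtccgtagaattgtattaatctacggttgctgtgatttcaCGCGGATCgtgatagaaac
AT5G10400 (H3.1), chr5:3271044-3271103, minus strand: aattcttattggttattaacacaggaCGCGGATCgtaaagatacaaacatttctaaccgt
AT4G40040 (H3.3), chr4:18558946-18559005, minus strand: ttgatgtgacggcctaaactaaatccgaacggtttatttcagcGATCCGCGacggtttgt
HTA10 (AT1G51060, H2A), chr1:18926751-18926810, plus strand: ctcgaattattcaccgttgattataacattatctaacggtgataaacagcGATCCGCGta
AT1G06760 (H1), chr1:2077768-2077827, minus strand: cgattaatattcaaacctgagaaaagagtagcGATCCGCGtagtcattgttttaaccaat
HTB9 (AT3G45980, H2B), chr3:16898136-16898195, minus strand: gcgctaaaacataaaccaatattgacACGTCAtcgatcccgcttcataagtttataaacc
HTB11 (AT3G46030, H2B), chr3:16914186-16914245, minus strand: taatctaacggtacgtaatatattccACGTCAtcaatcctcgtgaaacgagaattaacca
AT3G53650 (H2B), chr3:19889175-19889234, plus strand: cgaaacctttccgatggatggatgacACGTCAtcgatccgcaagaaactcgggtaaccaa
The octamer thus stood upstream of AT5G59690, 1 of the 7 H4 genes that fell, and of AT1G07660, the H4 gene that did not. The other H4 genes that fell lacked these exact letters, and near matches were not searched. The octamer also stood upstream of an H3.3 gene. Of the 10 members with the octamer, 6 were called lower in trm5-1, with log2 fold changes from -3.02 to 0.13 and a median of -2.25, against 14 of the 33 tested members without it and a median of -1.70. Of all genes tested, 7.15% were called lower. With the hexamer 7 of 11 were called (median -2.03), and without it 13 of 32 (-1.61). With AACGG 13 of 22 tested members were called (-2.25), and without it 7 of 21 (-1.03). The calls, described below, had little reserve, and these differences were not tested. These matches are letters in a window and no test of binding.

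Library totals ran from 21450866 to 26927531 counts in trm5-1 and from 14954658 to 26264021 counts in wild type. TRM5 itself had 100, 72 and 110 counts in trm5-1 replicates 2, 3 and 4, against 179, 643 and 526 in wild type replicates 2, 3 and 4 (log2 fold change -2.25). The wild type libraries stood apart from each other. STM, a gene of the shoot meristem, had 1, 0 and 2 counts in trm5-1, against 0, 390 and 191 in wild type, so that wild type replicate 2 lacked it. The 4 shoot meristem markers summed to 0.038 to 0.148 CPM (counts scaled to library size) in trm5-1 and to 0.222, 22.7 and 13.2 CPM in wild type replicates 2, 3 and 4, while WUS and CLV3, which mark its centre, had at most 2 counts in every library. Markers of roots and of seeds summed to at most 0.815 CPM in every library. The 5 leaf markers summed to 15120, 7131 and 11340 CPM in trm5-1, against 20990, 47300 and 37170 CPM in wild type replicates 2, 3 and 4. All 5 were lower in every trm5-1 library than in any wild type library, as in 20.0% of all genes. Of these 5, 1 passed the test, LHCB1.1 of the light-harvesting complex, against 7.15% of all genes called lower. Wild type replicate 2 was far below replicates 3 and 4 for LHCB1.1 and LHCB1.3, nearer to them for RCA and RBCS1A, and above them for CA1. The 6 flower and pollen markers summed to 2.94 to 9.25 CPM in trm5-1 and 3.04 to 6.13 CPM in wild type. The 3 of them that were tested all passed, against 7.15% of all genes called lower and 4.30% called higher. AG and PI of the inner floral organs were lower in trm5-1 (log2 fold changes -3.17 and -1.59), and VGD1 of pollen was higher (4.04). AP3, another floral organ gene, had 1, 0 and 0 counts in trm5-1, against 1, 54 and 42 in wild type. Among the 19408 genes tested, replicate 4 lay between replicates 2 and 3 for 68.3% of genes in trm5-1 and 81.3% in wild type, and whether the libraries differed in tissue or shared plants was not tested. The histone calls are therefore also given against wild type replicate 2 alone, a comparison chosen after seeing the data, and the part of meristem, leaf and floral tissue in the difference was not tested. Values of single libraries are listed in the order of replicates 2, 3 and 4. In bulk tissue, fewer cells of a type and less RNA per cell cannot be told apart.

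Most histone genes of the replication type, 16 of 23, fell in trm5-1, and 0 of the 6 replacement-type genes were called. Of the 43 members that passed the filter on low counts, 20 fell in trm5-1, against 7.15% of all genes tested, and 0 were called higher, against 4.30%. At an unadjusted p under 0.05 there were 35 lower, against 19.2% of all genes, and 1 higher, against 13.6%. DESeq2 called 31 lower, against 14.7% of all genes, and 0 higher. The median log2 fold change was -2.14 over the 23 replication-type genes, -0.29 over the 6 replacement-type genes and -1.42 over the 14 tested others, against 0.00 over all genes. In 33 members each trm5-1 library was below each wild type library, as in 20.0% of all genes, and in 2 members each was above, as in 19.7%. All 3 trm5-1 libraries lay below wild type replicate 2 alone in 36 members, including 23 of 23 of the replication type, against 35.3% of all genes.

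The calls had little reserve. Adjusted p-values of the 20 genes lay between 0.0199 and 0.0488, and 0 members were called without wild type replicate 4 or without any 1 of the trm5-1 libraries. Of all genes, 0.00% were then called lower without wild type replicate 4, and 0.312%, 0.0447% and 0.00% without trm5-1 replicates 2, 3 and 4. At an unadjusted p under 0.05 there were 30 members without wild type replicate 4, against 20.0% of all genes, and 33, 31 and 29 without trm5-1 replicates 2, 3 and 4, against 28.4%, 24.6% and 21.0%. Without wild type replicate 3, 10 members were called lower, against 2.68% of all genes, and without wild type replicate 2, 34 were, against 21.5%. With wild type replicates 3 and 4 left out, edgeR called 0 members, against 0.0354% of all genes lower, 18 had an unadjusted p under 0.05, against 23.4% of all genes, and the median was -1.36 for the replication type and -0.29 for the replacement type.

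**Figure D1:**
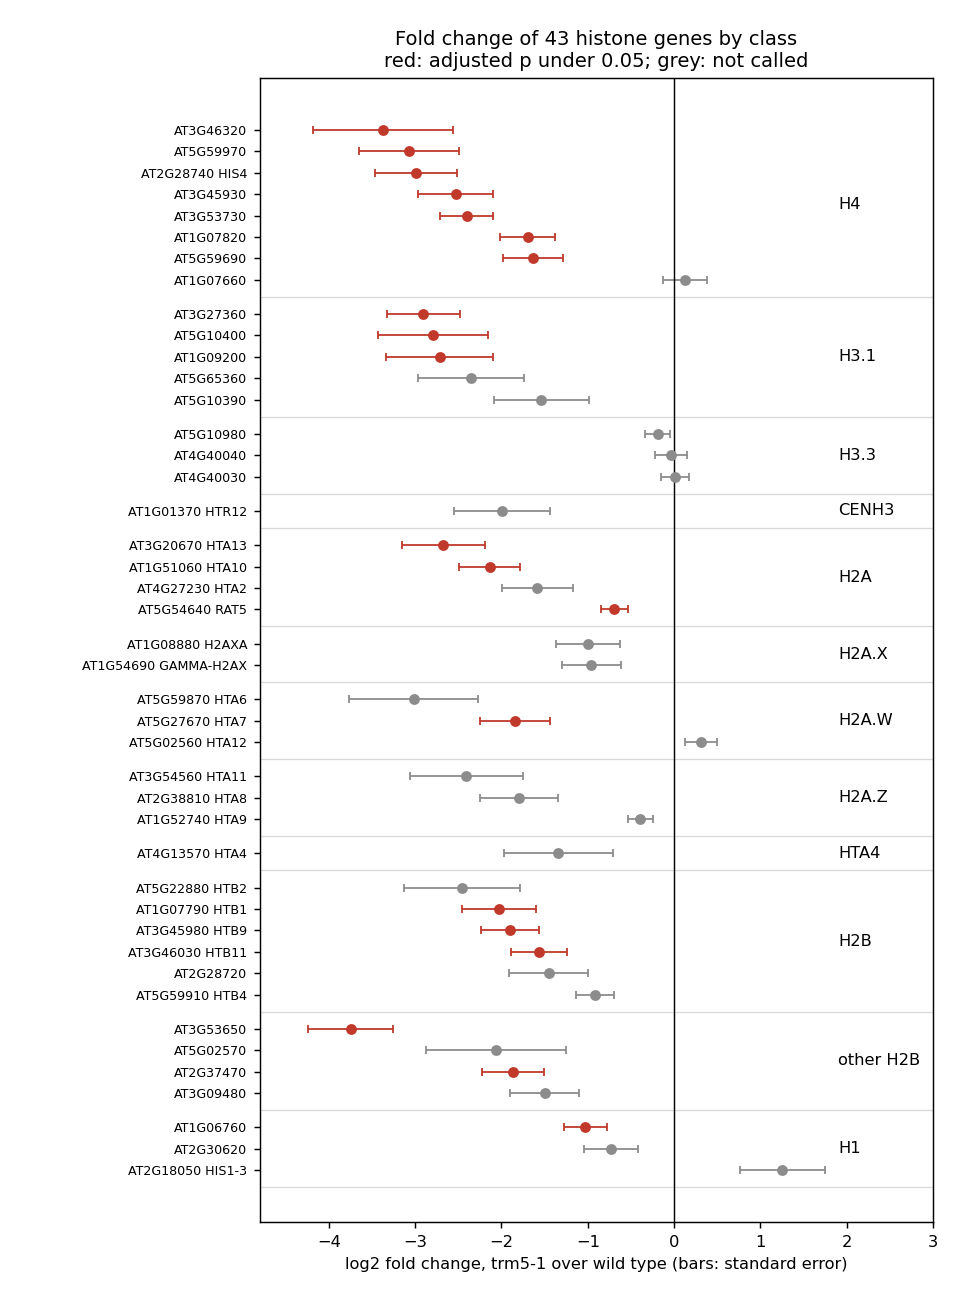
Log2 fold change (trm5-1 over wild type, horizontal axis) with its standard error for the 43 histone genes tested, 1 row per gene, grouped by class. The 20 genes called lower are red. The 3 H3.3 genes sit at 0.01, -0.03 and -0.19, while the H3.1 genes lie between -2.90 and -1.54.

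H4 is the partner of every H3 in the nucleosome, and the H4 genes encode the same protein. Of 8 genes, 7 fell, against 7.15% of all genes. The summed H4 level was 111, 60.8 and 88.2 CPM in trm5-1, against 209, 354 and 282 CPM in wild type. The gene with the most counts, AT5G59690, had 41.7, 17.1 and 33.4 CPM in trm5-1, against 79.3, 116 and 91.2 CPM in wild type (log2 fold change -1.64, standard error 0.35, adjusted p = 0.0404). Its trm5-1 libraries were all below the wild type libraries, and among the 8 H4 genes it had the highest level per length in both genotypes, at 41.2 CPM per kb in trm5-1 and 128 CPM per kb in wild type. AT3G46320 had 4.38, 0.381 and 1.85 CPM in trm5-1, against 12.7, 30.9 and 23.9 CPM in wild type (log2 fold change -3.38, standard error 0.81, adjusted p = 0.0484). AT3G45930, its close copy, had 4.23, 1.83 and 4.04 CPM in trm5-1, against 11.9, 27.2 and 19.1 CPM in wild type (log2 fold change -2.53, standard error 0.44, adjusted p = 0.0294). These copies shared 27.9% and 25.7% of their stretches of 50 bases with other transcripts, so their reads may be split between them, and in both genes the genotypes did not overlap.

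HIS4 (AT2G28740) had 4.08, 1.22 and 2.78 CPM in trm5-1, against 14.5, 27.1 and 22.1 CPM in wild type (log2 fold change -2.99, standard error 0.48, adjusted p = 0.0266). AT5G59970 had 4.23, 1.22 and 2.78 CPM in trm5-1, against 11.3, 33.9 and 23.5 CPM in wild type (log2 fold change -3.07, standard error 0.58, adjusted p = 0.0334). In both genes trm5-1 replicate 3 was the lowest library and wild type replicate 3 the highest. AT3G53730 had 6.99, 4.65 and 6.74 CPM in trm5-1, against 21.4, 42.0 and 33.7 CPM in wild type (log2 fold change -2.40, standard error 0.30, adjusted p = 0.0199). AT1G07820 had 16.9, 12.1 and 12.6 CPM in trm5-1, against 26.9, 60.3 and 47.0 CPM in wild type (log2 fold change -1.70, standard error 0.32, adjusted p = 0.0335). AT3G53730 had the smallest adjusted p of any histone gene, and neither gene's genotypes overlapped.

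The exception was AT1G07660, singled out after its values were seen, with 28.6, 22.4 and 24.1 CPM in trm5-1, against 31.1, 16.4 and 21.2 CPM in wild type. The genotypes overlapped, and wild type replicate 2 was the highest library. Its log2 fold change of 0.13 (standard error 0.26, edgeR adjusted p = 0.746) did not pass the test, and it was -0.06 without wild type replicate 3 and -0.30 against wild type replicate 2 alone. It is the H4 gene annotated with 2 coding exons, against 1 in the other 7. It made up 25.7%, 36.8% and 27.3% of H4 counts in trm5-1, against 14.9%, 4.64% and 7.52% in wild type. Stretches of 50 bases shared with other transcripts were 28.5% of this gene.

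H3.1 is the H3 that enters chromatin behind the replication fork. All 5 genes were lower in each trm5-1 library than in any wild type library, as in 20.0% of all genes. Of these 5, 3 passed the test, against 7.15% of all genes called lower. The most counted, AT1G09200, had 18.6, 3.51 and 11.04 CPM in trm5-1, against 46.7, 96.0 and 74.7 CPM in wild type (log2 fold change -2.72, standard error 0.62, adjusted p = 0.0435). AT5G10400 had 10.2, 1.68 and 6.22 CPM in trm5-1, against 28.6, 54.2 and 42.2 CPM in wild type (log2 fold change -2.79, standard error 0.64, adjusted p = 0.0437). Both were lowest in trm5-1 replicate 3 and highest in wild type replicate 3. AT3G27360 had 0.738, 0.610 and 1.45 CPM in trm5-1, against 5.11, 9.0 and 6.96 CPM in wild type (log2 fold change -2.90, standard error 0.42, adjusted p = 0.0240), though 35.6% of its stretches of 50 bases lie also in transcripts of other genes, among them the overlapping AT3G27380 on the same strand.

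The other pair of H3.1 genes did not pass. AT5G65360 had 19.5, 4.27 and 12.1 CPM in trm5-1, against 32.8, 88.6 and 61.9 CPM in wild type (log2 fold change -2.36, standard error 0.61, adjusted p = 0.0571). AT5G10390, which lies 577 bases from AT5G10400 on the same strand, had 13.04, 2.44 and 8.34 CPM in trm5-1, against 19.6, 26.4 and 23.1 CPM in wild type (log2 fold change -1.54, standard error 0.55, adjusted p = 0.113). In both the genotypes did not overlap. DESeq2 called both lower, with adjusted p-values of 0.00145 and 0.0383.

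H3.3 differs from H3.1 in a few residues and replaces it in transcribed genes. Its 3 genes had the highest levels per length of all 44 members in trm5-1, and ranked 1, 2 and 4 in wild type. AT4G40040 had 272, 289 and 269 CPM in trm5-1, against 318, 258 and 273 CPM in wild type, with the genotypes overlapping (log2 fold change -0.03, standard error 0.18, adjusted p = 0.915). AT4G40030, 42 bases from it, had 177, 200 and 177 CPM in trm5-1, against 176, 193 and 180 CPM in wild type (log2 fold change 0.01, standard error 0.16, adjusted p = 0.966), and its sign was negative under upper quartile scaling (-0.10) and without trm5-1 replicate 3 (-0.03). AT5G10980 had 94.3, 82.0 and 84.7 CPM in trm5-1, against 104, 93.8 and 100 CPM in wild type (log2 fold change -0.19, standard error 0.14, adjusted p = 0.376). Summed over the 3 genes, the level was 548 ± 20.4 CPM in trm5-1 and 566 ± 28.6 CPM in wild type (SD, n = 3 each), against 37.9 ± 24.8 CPM in trm5-1 and 205 ± 70.8 CPM in wild type for H3.1.

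H3.1 thus made up 10.3%, 2.15% and 6.87% of H3.1 plus H3.3 counts in trm5-1, against 18.2%, 33.5% and 27.4% in wild type. The genotypes did not overlap, and the means were 6.42 ± 4.07% in trm5-1 and 26.3 ± 7.72% in wild type (SD, n = 3 each), a difference of -19.9 percentage points. With counts divided by exon length, the means were 10.4 ± 6.37% in trm5-1 and 37.3 ± 9.38% in wild type. Against wild type replicate 2 alone the difference in the share of counts was -11.7 percentage points. No test was run on the share, since 3 libraries against 3 cannot give an exact two-sided permutation p under 0.1.

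**Figure D2:**
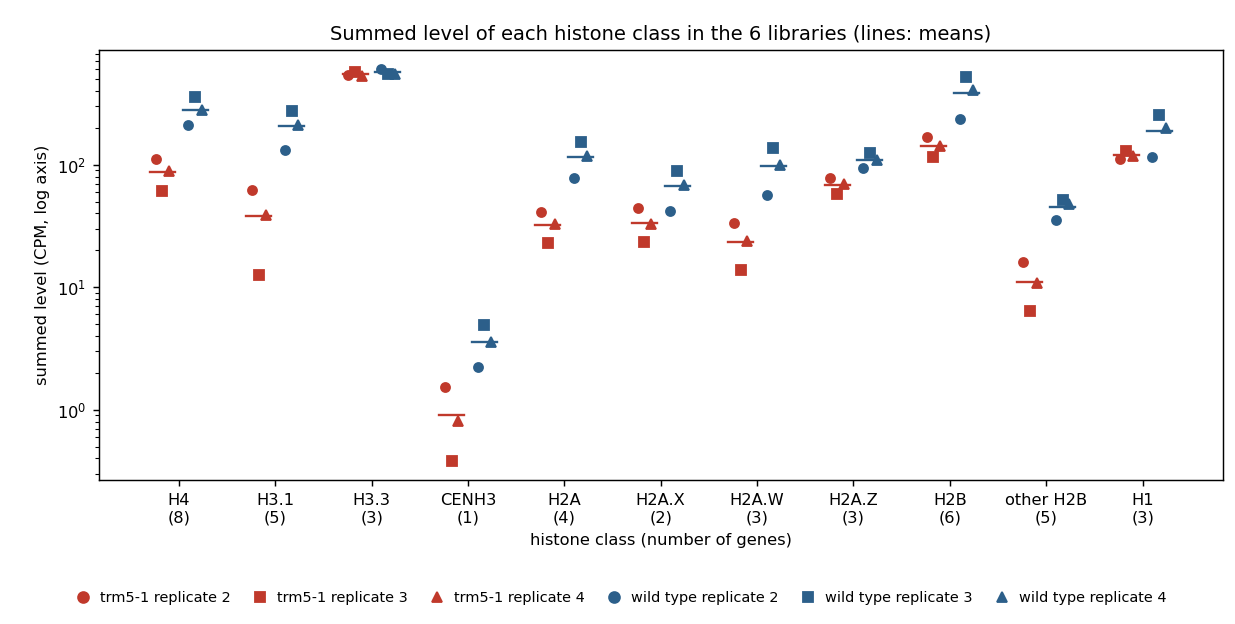
Summed level of each histone class in CPM (vertical log axis) in each library, trm5-1 in red left of wild type in blue, with the mean as a line. H3.3 lies at 531 to 571 CPM in trm5-1 and 545 to 598 CPM in wild type, while H3.1 lies at 12.5 to 62.1 CPM in trm5-1 and 133 to 274 CPM in wild type.

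CENH3 (HTR12), the H3 of centromeres, was among the lowest members. It had 1.53, 0.381 and 0.815 CPM in trm5-1, against 2.22, 4.89 and 3.59 CPM in wild type (log2 fold change -1.998, standard error 0.56, adjusted p = 0.0651). The genotypes did not overlap, but the counts behind these levels were 31, 10 and 22 in trm5-1, against 30, 138 and 96 in wild type. DESeq2 called it lower (adjusted p = 0.00590). HTR11, an H3 gene outside the 44, had 10, 9 and 8 counts in trm5-1, against 9, 145 and 84 in wild type, so that wild type replicate 2 was like trm5-1. The remaining 4 of the 5 further H3 genes were not tested, with at most 9 counts in any library.

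Canonical H2A pairs with H2B in the core. All 4 genes were lower in every trm5-1 library than in wild type, as in 20.0% of all genes, and 3 fell, against 7.15%. HTA10 (AT1G51060) had 16.5, 9.12 and 12.4 CPM in trm5-1, against 35.4, 76.4 and 55.4 CPM in wild type (log2 fold change -2.14, standard error 0.35, adjusted p = 0.0279). HTA13 (AT3G20670) had 6.05, 1.64 and 3.59 CPM in trm5-1, against 17.3, 28.9 and 25.3 CPM in wild type (log2 fold change -2.67, standard error 0.49, adjusted p = 0.0312). Wild type replicate 3 was the highest library for both. RAT5 (HTA1, AT5G54640), named for its part in transformation by Agrobacterium, had 8.12, 6.64 and 8.12 CPM in trm5-1, against 12.6, 12.5 and 11.9 CPM in wild type (log2 fold change -0.69, standard error 0.16, adjusted p = 0.0435). Its call was lost with no filter on low counts (adjusted p = 0.0622). It had the smallest change of the 20 called genes, and its wild type libraries were nearly equal. HTA2 (AT4G27230) had 10.2, 5.64 and 8.71 CPM in trm5-1, against 12.7, 35.2 and 25.6 CPM in wild type (log2 fold change -1.59, standard error 0.41, adjusted p = 0.0567) and was called by DESeq2 (adjusted p = 0.00428).

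H2A.X is phosphorylated beside DNA breaks. Neither of its genes passed the test, and both had trm5-1 replicate 2 above wild type replicate 2. H2AXA (AT1G08880) had 36.0, 16.3 and 25.9 CPM in trm5-1, against 33.9, 68.9 and 53.0 CPM in wild type (log2 fold change -0.997, standard error 0.37, adjusted p = 0.121). GAMMA-H2AX (AT1G54690) had levels between 6.97 and 8.61 CPM in trm5-1 and between 8.22 and 20.7 CPM in wild type, with a log2 fold change of -0.96 (adjusted p = 0.109). HTA4 (AT4G13570), of the H2A family, was kept as a class of its own, in neither the replication nor the replacement type. Its genotypes also overlapped, with 2.81 to 5.57 CPM in trm5-1 and 2.74 to 16.3 CPM in wild type (log2 fold change -1.34, adjusted p = 0.192). Its log2 fold change was 0.61 against wild type replicate 2 alone.

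H2A.W is the variant of heterochromatin, and its 3 genes differed in sign. HTA7 (AT5G27670) had 14.8, 5.99 and 10.7 CPM in trm5-1, against 24.4, 50.4 and 37.9 CPM in wild type (log2 fold change -1.85, standard error 0.40, adjusted p = 0.0416). HTA6 (AT5G59870) had 11.3, 1.60 and 7.34 CPM in trm5-1, against 27.3, 80.6 and 55.2 CPM in wild type (log2 fold change -3.02, standard error 0.75, adjusted p = 0.0514). The genotypes did not overlap in either, and the second missed the threshold with the larger fold change and the larger spread. DESeq2 called HTA6 lower (adjusted p = 0.000351). HTA12 (AT5G02560) had 6.99, 6.29 and 5.63 CPM in trm5-1, against 5.11, 4.75 and 5.35 CPM in wild type (log2 fold change 0.31, standard error 0.18, adjusted p = 0.279), so that all trm5-1 libraries were slightly above wild type. The H2B gene AT5G02570 lies wholly inside HTA12 on the opposite strand, and whether counting used strand is not given in the sources used here, so reads of the pair may be shared.

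H2A.Z is placed near the start of genes by an exchange complex and is the replacement member of the family. None of its 3 genes was called by edgeR. In all 3 each trm5-1 library was below each wild type library, as in 20.0% of all genes. HTA9 (AT1G52740), the most counted, had 68.6, 55.7 and 63.3 CPM in trm5-1, against 78.8, 86.0 and 81.2 CPM in wild type (log2 fold change -0.39, standard error 0.14, adjusted p = 0.115). HTA11 (AT3G54560) had 6.40, 1.297 and 3.56 CPM in trm5-1, against 9.41, 28.9 and 20.9 CPM in wild type (log2 fold change -2.41, standard error 0.65, adjusted p = 0.0625). HTA8 (AT2G38810) had 2.90, 1.03 and 2.78 CPM in trm5-1, against 5.71, 10.4 and 7.18 CPM in wild type (log2 fold change -1.80, standard error 0.45, adjusted p = 0.0529). DESeq2 called HTA8 and HTA11 lower (adjusted p = 0.00228 and 0.00237) but not HTA9 (adjusted p = 0.0611).

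The replacement type was thus not uniform, since its median joins 3 H3.3 genes between -0.19 and 0.01 with 3 H2A.Z genes between -2.41 and -0.39. With H2A.X and H2A.W counted as replacement, the median was -0.96. HTA9 made up 88.1%, 96.0% and 90.9% of H2A.Z counts in trm5-1, against 83.9%, 68.7% and 74.3% in wild type. Of the counts of the 13 H2A genes, H2A.Z took 42.9 ± 3.85% in trm5-1 and 28.4 ± 5.29% in wild type, and canonical H2A took 19.8 ± 1.04% in trm5-1 and 29.0 ± 0.477% in wild type (SD, n = 3 each). H2A.W took 14.1 ± 2.73% in trm5-1 and 23.7 ± 2.70% in wild type. None of these shares, which are not corrected for length, overlapped between genotypes, and they were not tested.

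**Figure D3:**
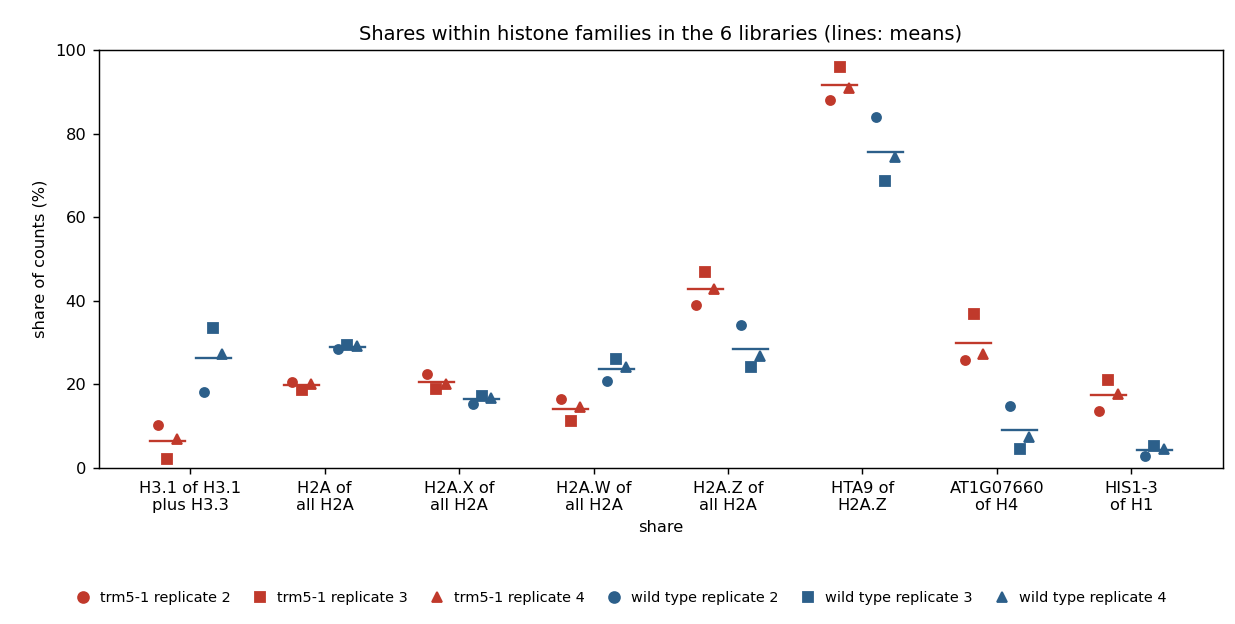
Share of counts (vertical axis, in percent) taken by a histone class or gene within its family in each library, trm5-1 in red left of wild type in blue, with the mean as a line. H3.1 takes 2.15 to 10.3% in trm5-1 and 18.2 to 33.5% in wild type, and HIS1-3 takes 13.6 to 21.1% of H1 counts in trm5-1 and 2.94 to 5.36% in wild type.

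H2B genes carry 1 coding exon each, and 10 of 11 were tested. All 10 were lower in every trm5-1 library than in any wild type library, as in 20.0% of all genes. Of these, 5 fell, against 7.15% of all genes. HTB9 (AT3G45980) had 25.1, 15.7 and 21.3 CPM in trm5-1, against 46.8, 102 and 82.4 CPM in wild type (log2 fold change -1.90, standard error 0.33, adjusted p = 0.0302). HTB11 (AT3G46030) had 26.4, 17.8 and 21.4 CPM in trm5-1, against 38.7, 87.4 and 67.5 CPM in wild type (log2 fold change -1.56, standard error 0.33, adjusted p = 0.0388). HTB1 (AT1G07790) had 7.43, 6.33 and 6.82 CPM in trm5-1, against 12.4, 42.5 and 28.8 CPM in wild type (log2 fold change -2.03, standard error 0.43, adjusted p = 0.0400). HTB1 was nearly level within trm5-1, whereas its wild type libraries spread widely, with replicate 2 the lowest. For HTB9, 31.4% of stretches of 50 bases lie in transcripts of other genes, among them 2 overlapping genes on the opposite strand.

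AT2G37470 had 14.3, 5.72 and 9.12 CPM in trm5-1, against 27.2, 41.9 and 37.1 CPM in wild type (log2 fold change -1.87, standard error 0.36, adjusted p = 0.0343). AT3G53650 had 0.394, 0.229 and 0.852 CPM in trm5-1, against 5.33, 7.23 and 7.55 CPM in wild type (log2 fold change -3.75, standard error 0.49, adjusted p = 0.0211). The second had the largest fall of the 44 genes, on 8, 6 and 23 counts in trm5-1 and 72, 204 and 202 counts in wild type. In both, wild type replicate 2 was well above the trm5-1 libraries.

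The other 5 H2B genes tested did not pass with edgeR. DESeq2 called 4 of them lower, all but AT5G02570, against 14.7% of all genes. The DESeq2 adjusted p-values of these 4 lay between 0.00216 and 0.0188. HTB4 (AT5G59910), the most counted, had 79.1, 58.6 and 69.3 CPM in trm5-1, against 99.4, 157 and 134 CPM in wild type (log2 fold change -0.92, standard error 0.22, adjusted p = 0.05001). HTB2 (AT5G22880) had 14.5, 3.05 and 9.004 CPM in trm5-1, against 20.6, 72.2 and 52.2 CPM in wild type (log2 fold change -2.46, standard error 0.68, adjusted p = 0.0639). AT2G28720 had 15.0, 14.2 and 14.5 CPM in trm5-1, against 16.0, 62.0 and 41.3 CPM in wild type (log2 fold change -1.45, standard error 0.46, adjusted p = 0.0841). In the last, wild type replicate 2 stood just above the trm5-1 libraries, and replicates 3 and 4 far above them. AT3G09480 had 1.08, 0.419 and 0.593 CPM in trm5-1, against 2.07, 1.98 and 1.83 CPM in wild type (log2 fold change -1.50, standard error 0.40, adjusted p = 0.0599). AT5G02570, the gene inside HTA12, had 0.295, 0 and 0.222 CPM in trm5-1, against 0.593, 0.709 and 0.823 CPM in wild type (log2 fold change -2.07, standard error 0.81, adjusted p = 0.137), which is 0 to 6 counts in trm5-1 and 8 to 22 counts in wild type. AT1G08170, the member that was not tested, had at most 4 counts in any library.

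H1 binds the linker DNA between nucleosomes, and its 3 genes differed in sign. AT1G06760 fell, with 44.8, 47.8 and 45.3 CPM in trm5-1, against 62.5, 119 and 100 CPM in wild type (log2 fold change -1.03, standard error 0.25, adjusted p = 0.0488). This call was lost under upper quartile scaling (adjusted p = 0.0530), with no filter and with the minimum of 10 counts (adjusted p = 0.0553 in both). Its trm5-1 libraries lay close together and below wild type replicate 2, although 39.2% of its stretches of 50 bases lie in transcripts of other genes, 2 of them overlapping on the opposite strand. AT2G30620 had 50.7, 54.6 and 51.9 CPM in trm5-1, against 49.9, 120 and 90.2 CPM in wild type (log2 fold change -0.73, standard error 0.31, adjusted p = 0.165). Wild type replicate 2 was below all trm5-1 libraries there, and the log2 fold change against that library alone was 0.08.

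HIS1-3 (AT2G18050), a linker histone variant induced by stress, had 15.1, 27.3 and 20.8 CPM in trm5-1, against 3.41, 13.5 and 9.31 CPM in wild type. All trm5-1 libraries were above all wild type libraries, and the lowest wild type library was replicate 2. The log2 fold change of 1.25 (standard error 0.49) was the largest positive one of the members and did not pass the test (adjusted p = 0.137 with edgeR and 0.0601 with DESeq2). HIS1-3 took 13.6%, 21.1% and 17.6% of H1 counts in trm5-1, against 2.94%, 5.36% and 4.66% in wild type.

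**Figure D4:**
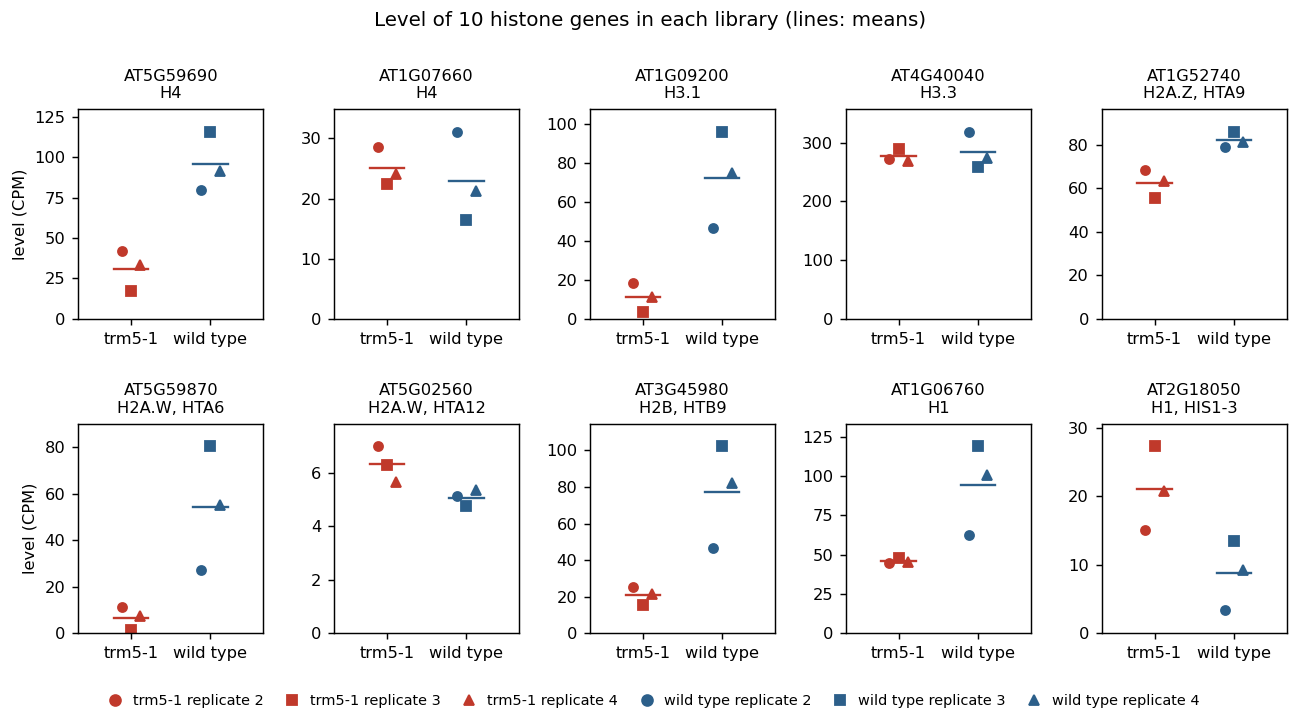
Level in CPM (vertical axis, from 0, own scale per panel) of 10 histone genes in each library, trm5-1 in red left of wild type in blue, with the mean as a line. AT5G59690, AT1G09200, HTA6, HTB9 and AT1G06760 lie below wild type in every trm5-1 library, AT1G07660 and AT4G40040 overlap, and HTA12 and HIS1-3 lie above.

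Several histone genes are neighbours, and members of a close pair did not always have like values. HTB1 and the H4 gene AT1G07820 lie 7.30 kb apart on chromosome 1 and had log2 fold changes of -2.03 and -1.70. The H2B gene AT2G28720 and HIS4 lie 1.54 kb apart on chromosome 2, with log2 fold changes of -1.45 and -2.99. HTA6 and HTB4 are 10.7 kb apart on chromosome 5 and had -3.02 and -0.92, and the tandem H3.3 genes on chromosome 4 had -0.03 and 0.01. These are 4 of the 9 pairs at most 20 kb apart, chosen after their values were seen, and their differences were not tested.

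The order of libraries was alike across the replication type. In trm5-1, replicate 3 was the lowest library for 23 of 23 replication-type genes, against 8362 of 19408 genes in all, and in wild type, replicate 2 was the lowest for 21 of 23, against 9285 of 19408. Replicate 4 lay between replicates 2 and 3 for 22 of 23 of these genes in each genotype, against the 68.3% in trm5-1 and 81.3% in wild type of all genes given above. The summed level of the replication type was 382, 212 and 303 CPM in trm5-1, against 654, 1304 and 1015 CPM in wild type, and that of the replacement type was 621, 629 and 601 CPM in trm5-1, against 692, 670 and 663 CPM in wild type. The replacement-type sum, which varied little within a genotype, was mostly H3.3, while the levels of HTA8 and HTA11 of the same type, given above, varied widely among the libraries of each genotype.

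Genes that work beside histones were counted as lists. Of 23 histone chaperones and remodellers, which carry histones to DNA or exchange them, 0 were called by edgeR in either direction, with a median log2 fold change of -0.12, and 5 were lower and 1 higher at an unadjusted p under 0.05, against 19.2% and 13.6% of all genes. DESeq2 called 4 of them lower, against 14.7% of all genes, and 0 higher. These shares of lower genes are near those of all genes. FAS1 and FAS2, subunits of the CAF-1 complex that places H3.1 during replication and singled out after their values were seen, had log2 fold changes of -1.46 (standard error 0.59, adjusted p = 0.145) and -1.66 (standard error 0.51, adjusted p = 0.0817). MSI1, the other CAF-1 subunit of the list, had 0.11 (standard error 0.17, adjusted p = 0.67). HIRA, which places H3.3, had 0.36 (standard error 0.23, adjusted p = 0.310). UBN1, CABIN1 and UBN2, listed as its partners, had 0.25, 0.26 and -0.53 (adjusted p = 0.231, 0.377 and 0.401). DDM1, a remodeller, had the lowest log2 fold change of the list and was not called by edgeR (adjusted p = 0.0909). The 4 genes that DESeq2 called were DDM1, FAS2, ASF1B and KNL2 (DESeq2 adjusted p = 0.0150, 0.0154, 0.0437 and 0.0439). ASF1B and KNL2 had log2 fold changes of -1.355 and -0.97 (edgeR adjusted p = 0.112 and 0.0935). These genes were also named after their values were seen. Differences between these genes were not tested.

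Of 18 genes of DNA replication, 1 was called lower, against 7.15% of all genes, and 0 higher, with a median of -1.28. DESeq2 called 4 of them lower, against 14.7% of all genes, and 6 were lower at an unadjusted p under 0.05, against 19.2%. Of the 12 tested of 13 genes of mitosis, 6 were called lower, against 7.15% of all genes, with a median of -3.44. DESeq2 called all 13 lower, against 14.7% of all genes. Mitosis genes summed to 12.8, 7.17 and 10.5 CPM in trm5-1, against 22.2, 199 and 126 CPM in wild type, so that wild type replicate 2 was 2.19 times the trm5-1 mean and wild type replicate 3 was 8.94 times wild type replicate 2. For replication-type histones, the same ratios were 2.19 and 1.99, for leaf markers 1.87 and 2.25, and for shoot meristem markers 2.34 and 102. The sums of leaf markers and of shoot meristem markers were thus also lowest in trm5-1 and, within wild type, in replicate 2. The step from wild type replicate 2 to replicate 3 was near that of the histones for the leaf marker sum and far larger for meristem markers. The leaf sum rose mainly through LHCB1.1 (47.0 to 7911 CPM) and LHCB1.3 (4672 to 22810 CPM). RBCS1A (8420 to 9903 CPM) and RCA (5078 to 5134 CPM) rose little between these 2 libraries. Among leaf markers, CA1 went the other way within wild type, at 2773, 1546 and 2030 CPM. The part of these markers in the histone values was not tested.

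**Figure D5:**
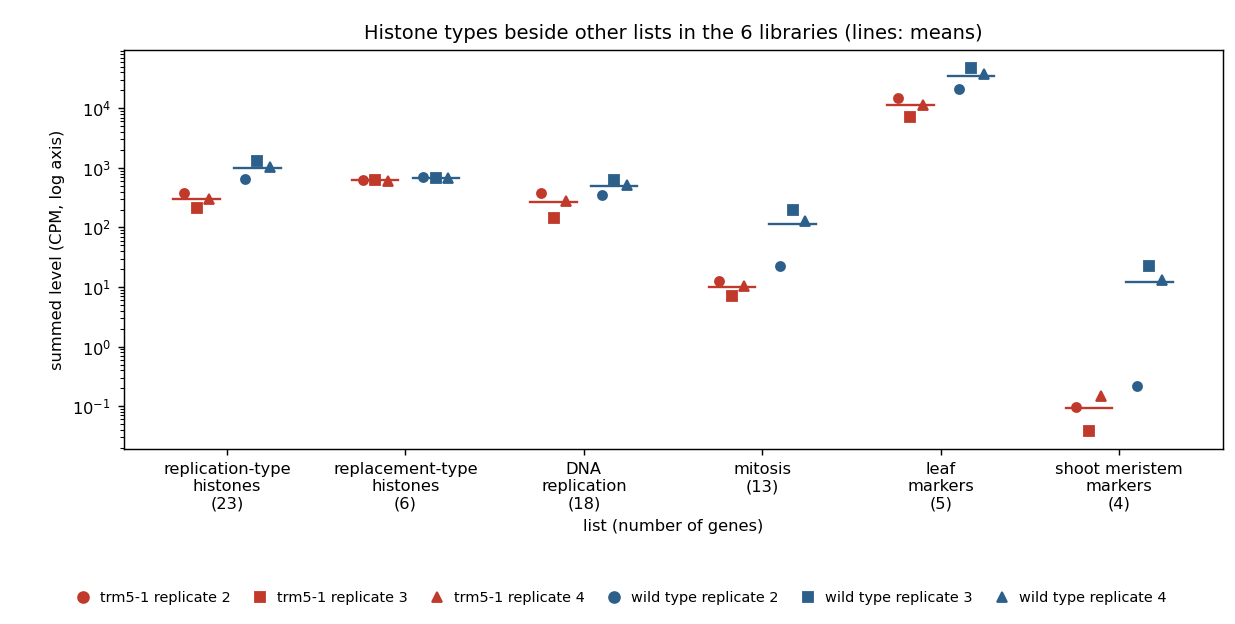
Summed level in CPM (vertical log axis) of replication-type and replacement-type histones, DNA replication genes, mitosis genes, leaf markers and shoot meristem markers in each library, trm5-1 in red left of wild type in blue, with the mean as a line. Replication-type histones in wild type replicate 2, at 654 CPM, lie above the 212 to 382 CPM of trm5-1, while shoot meristem markers in that library, at 0.222 CPM, lie close to the 0.038 to 0.148 CPM of trm5-1.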

How the data were processed

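RNA-seq libraries of trm5-1 and wild type leaves were compared by genotype alone, with 3 libraries each, for which the methods state biological replicates. The authors trimmed reads with Trim Galore 0.4.2, mapped them to TAIR10 with STAR 2.5.3 and counted them per gene with featureCounts, and they deposited these raw counts without normalization. Settings for strand and for reads that map to several genes are not given in the sources used here. The table of normalized values and the tRNA files of the series were not used.

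The genotypes were compared in R 4.3.3 by edgeR 4.0.16 (filterByExpr, TMM, quasi-likelihood F test, Benjamini-Hochberg over 19408 genes, call at an adjusted p under 0.05). Standard errors were obtained by dividing the log2 fold change by the root of F. Levels are CPM, counts scaled to the TMM library size, and levels per kb use the union of annotated exons. DESeq2 1.42.0, RLE and upper quartile scaling, no filter, a minimum of 10 counts per library, a block for the replicate number, each library left out and replicate 4 left out were alternatives. Leaving out wild type replicates 3 and 4 was added after seeing the data, and the lone library is then assumed to vary like the others. Both tests were checked on simulated counts.

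The members, types and lists were chosen with earlier results of these data known. Values and tests are given for every member called, every member whose genotypes do not overlap and the most counted member of each class. Other members are given by range. List genes are given as counts, and those also given by name were not picked by this rule. Gene names, positions and upstream bases are from RefSeq (TAIR10.1), in which all 44 identifiers were found. Members without an annotated name are called by locus. Figures were drawn with matplotlib 3.10.9.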

Additional observations from a re-analysis of the deposited data

How the results depend on the processing

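No histone gene was called higher under any alternative. RLE, upper quartile scaling, no filter and the minimum of 10 counts called 21, 20, 19 and 17 members lower. Of all genes tested, they called 1398 of 19408, 1478 of 19408, 1158 of 26561 and 991 of 17207 lower. AT1G06760 was lost under the last 3 of these settings, RAT5 with no filter and AT3G46320 with the minimum, which leaves AT3G53650 untested. Upper quartile scaling moved the median of all genes to -0.12. DESeq2 called 31 members lower, and 3229 genes lower and 2004 higher in all, against 1387 and 835 with edgeR. With each library left out in turn, members called lower ran from 0 to 34, all genes lower from 0 to 4334 and all genes higher from 0 to 3263. With replicate 4 of both genotypes left out, edgeR called 0 members and 0 genes in either direction. With wild type replicates 3 and 4 left out, it called 0 members, and 7 genes lower and 5 higher, the replication-type median moved to -1.36 and the difference in the H3.1 share to -11.7 percentage points. With each library left out in turn, the replication-type median stayed between -2.36 and -1.85. Taking H2A.X and H2A.W as replacement moved that median to -0.96. The sign turned for AT4G40040 without wild type replicate 2 (0.0797) and without trm5-1 replicate 4 (0.00724), against -0.0996 without wild type replicate 3, for AT4G40030 under upper quartile scaling (-0.10) and without trm5-1 replicate 3 (-0.03), for AT1G07660 without wild type replicate 3 (-0.06), and, against wild type replicate 2 alone, for AT1G07660 (-0.30), HTA4 (0.61) and AT2G30620 (0.0818). The cause was not tested. Deviations of same-numbered libraries from their genotype mean correlated over genes at -0.02, 0.00 and 0.07. With 3 libraries per genotype, these values cannot show whether the replicate numbers paired the samples. With the replicate block, edgeR called 0 members and 0 genes in either direction, while 29 members had an unadjusted p under 0.05, against 27.1% of all genes.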
